A study of Mus musculus with 10 samples.

Results

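Clusters 14 and 15 are a pair of molecularly defined cell types of the paraventricular hypothalamus (PVH) with adjacent cluster numbers, and both contained cells with *Reln* transcripts. Their members were chosen by the cluster number that the authors deposited for each cell. Cluster 14 held 57 cells and cluster 15 held 60 cells, so that 117 of the 706 cells kept after quality control are described here, out of 664 cells in 12 PVH clusters. The cells were picked by hand from the PVH of male offspring, older than 7 weeks, of Agrp-IRES-Cre mice crossed to the Ai9 tdTomato reporter. Each cell went into a well of a 96-well plate that was read as counts of unique molecular identifiers (UMIs) by Smart-SCRB, a 3'-end single-cell RNA-seq chemistry. All 10 plates (prefix Q 4, prefix AL 2, prefix JM 4) belonged to a single untreated condition. The sample labels describe the picked cells as labelled neurons, whereas in the methods AGRP axons served to outline the nucleus. The animals on each plate are not named in the sources used here, so the plate was taken as the replicate, and p-values measure the spread between plates.

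The PVH is the hypothalamic nucleus whose neurons release peptides into the pituitary, the portal blood and the brainstem. Corticotropin-releasing hormone (*Crh*) drives the adrenal stress axis and thyrotropin-releasing hormone (*Trh*) drives the thyroid axis, while *Penk* encodes the precursor of the enkephalins, which are opioid peptides. *Fam150b* (now *Alkal2*) encodes a secreted ligand of the receptor tyrosine kinases ALK and LTK, *Reln* encodes the secreted glycoprotein reelin, and *Ntng1* encodes netrin-G1, a membrane-anchored synaptic adhesion protein.

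The cells of cluster 14 had between 55378 and 396893 UMIs (median 102969) and a median of 5562 genes, and those of cluster 15 had between 53004 and 326325 UMIs (median 87942.5) and a median of 4722.5 genes. Cells of the same plate and cluster were summed, and the comparison was paired on the 7 plates with at least 3 cells of each cluster (Q5, Q7, AL5, JM5, JM6, JM7 and JM8). These plates held 46 cells of cluster 14 and 54 cells of cluster 15, and their sums ranged from 357053 to 2546904 UMIs. All 6 PVH neuron markers had UMIs in both clusters, and their summed level ran from 1014 to 3823 CPM (the UMIs of a gene scaled to a common library total) in cluster 14 and from 762 to 4131 CPM in cluster 15. Of 24 glial, vascular and immune markers, 10 had any UMI and 0 passed the filter on low counts. The summed astrocyte markers reached at most 5.50 CPM in cluster 14 and 1.64 CPM in cluster 15. The summed oligodendrocyte markers reached at most 66.6 and 74.9 CPM. Microglial markers were at 0 in cluster 14 and at most 12 CPM in cluster 15.

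*Crh* separated both clusters completely. In cluster 14 it stood at 230.5, 935, 611, 343, 508, 699 and 569.9 CPM on plates Q5, Q7, AL5, JM5, JM6, JM7 and JM8, and in cluster 15 it was at 0 on all 7 plates. The sums of cluster 14 held 3152 *Crh* UMIs among 6622751, and those of cluster 15 held 0 among 6196745. Against a floor of 3 counts over the group, *Crh* was at least 983-fold higher in cluster 14 (edgeR quasi-likelihood test, adjusted p = 3.92e-05). *Crh* was the 1 gene of 6998 tested that was called higher in cluster 14 (0.0143%), and 0 genes (0%) were called higher in cluster 15. At an unadjusted p under 0.05, edgeR gave 137 genes higher in cluster 14 and 110 higher in cluster 15, and DESeq2 called 22 and 28 genes at an adjusted p under 0.05. *Crh* passed the filter on low counts through cluster 14 alone. Because the clusters were drawn from the expression of these same cells, every p between them describes how steady a difference was over plates and is no independent test.

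Counts by cell describe the same division and are no further support for it, since the clusters were drawn from these cells. At least 1 *Crh* UMI was found in 57 of 57 cells of cluster 14 (95% Clopper-Pearson interval 93.7% to 100%), with a median of 46 UMIs, and in 0 of 60 cells of cluster 15, which allows a share of up to 5% by a limit of 3 counts and of up to 5.96% by the exact interval. At a minimum of 3 UMIs the share in cluster 14 was 93.0%. In the other PVH clusters 97 of 547 cells had a *Crh* UMI (17.7%, 14.6% to 21.2%, median depth 142410 UMIs). Among them cluster 1 had 18 of 221 cells (8.14%, 4.90% to 12.6%) and cluster 9 had 1 of 25 cells (4.00%), at median depths of 183836 and 153729 UMIs, and the limit for cluster 15 does not place it below either. Intervals and limits cover counting error only. Among PVH clusters *Crh* stood at 522 ± 236 CPM (SD over 8 plates) in cluster 14, second to cluster 10 at 1743 ± 805 CPM.

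**Figure D1:**
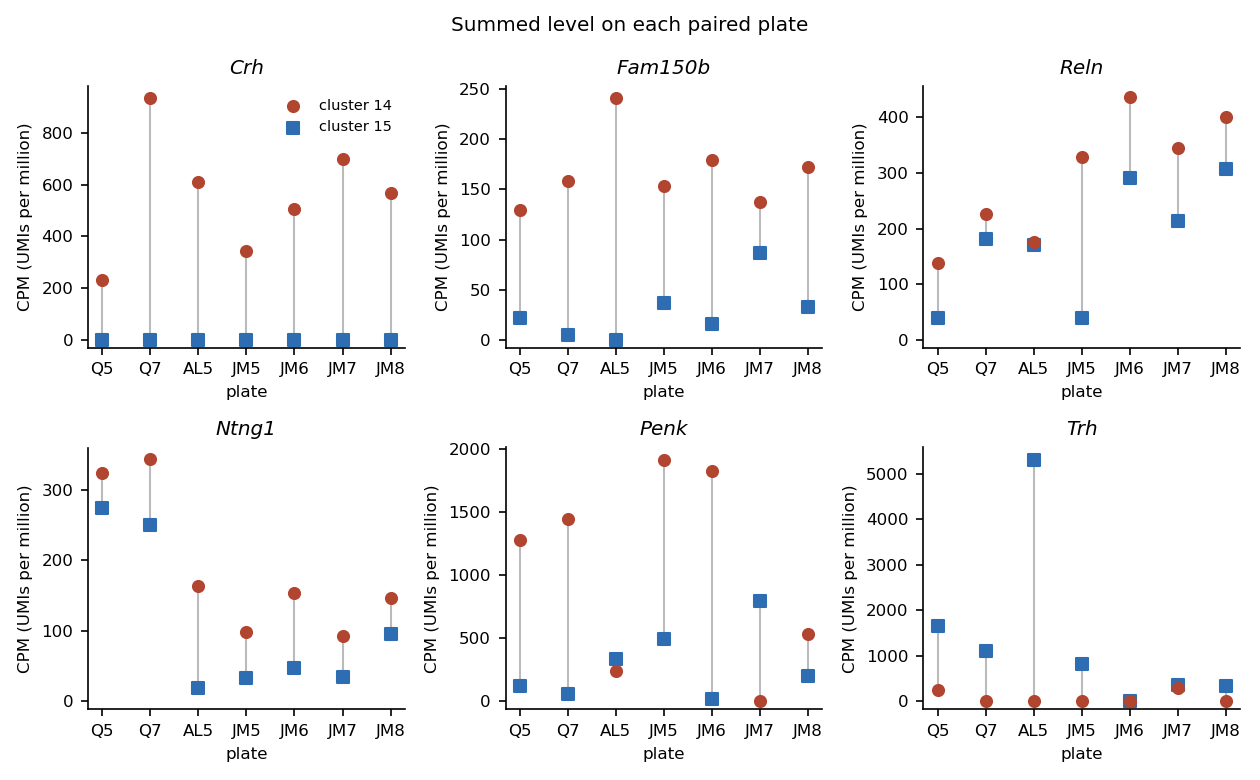
CPM of 6 genes in the summed cells of each of the 7 paired plates, with red circles for cluster 14, blue squares for cluster 15 and a grey line joining the values of a plate. *Crh* and *Fam150b* do not overlap between the clusters, *Reln* and *Ntng1* are higher in cluster 14 on every plate with overlapping ranges, and *Penk* and *Trh* cross between plates or reach 0 in both clusters.

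*Fam150b* was the other marker whose plate values did not overlap. It stood at 130.0, 158, 241, 153, 179, 138 and 173 CPM in cluster 14 and at 21.4, 4.84, 0, 36.4, 15.6, 86.9 and 32.4 CPM in cluster 15, in the plate order above. The lowest plate of cluster 14 thus lay above the highest plate of cluster 15, JM7. *Fam150b* passed the filter on low counts through its sums of cluster 14. The log2 fold change was 3.12 (SE 0.69), which missed the threshold over all genes in edgeR (unadjusted p = 0.000465, adjusted p = 0.813). DESeq2 gave an adjusted p of 0.00572, and limma on the mean log2(CPM + 1) of cells gave 0.000547. The limma fold changes leaned to cluster 14 as a whole, with a median log2 fold change of 0.25 over 6998 genes. A *Fam150b* UMI was found in 43 of 57 cells of cluster 14 (75.4%, 62.2% to 85.9%) and in 13 of 60 cells of cluster 15 (21.7%, 12.1% to 34.2%). With each cell thinned to 59880 UMIs the shares were 71.2% and 20.8%. The other PVH clusters had it in 21 of 547 cells (3.84%). Over all plates with at least 3 cells of a cluster, the level was 166 ± 34.3 CPM in cluster 14 (8 plates), first among PVH clusters, 161 ± 68.0 CPM in cluster 13 (3 plates) and 24.7 ± 28.7 CPM in cluster 15 (8 plates), so that clusters 14 and 13 do not differ beyond their spread.

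The promoters of the marker that was higher in cluster 14 and of the hormone gene that was higher in cluster 15 are shown as the stretches from which both transcripts start. The 250 bases before the start of *Fam150b* (chr12:30884074-30884323, plus strand) and of *Trh* (chr6:92244651-92244900, minus strand) are given 5′ to 3′ from RefSeq on GRCm38.p6, where 2 of the 4 genes looked up (*Crh*, *Fam150b*, *Penk*, *Trh*) had an entry. Capitals mark the letters TGACG or its reverse complement, TGACCTCA and TATAA, searched on both strands.
Fam150b: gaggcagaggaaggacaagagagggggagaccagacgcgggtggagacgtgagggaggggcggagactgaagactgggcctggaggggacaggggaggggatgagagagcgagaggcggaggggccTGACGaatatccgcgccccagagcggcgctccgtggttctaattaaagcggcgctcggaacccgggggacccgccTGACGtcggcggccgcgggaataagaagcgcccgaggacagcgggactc
Trh: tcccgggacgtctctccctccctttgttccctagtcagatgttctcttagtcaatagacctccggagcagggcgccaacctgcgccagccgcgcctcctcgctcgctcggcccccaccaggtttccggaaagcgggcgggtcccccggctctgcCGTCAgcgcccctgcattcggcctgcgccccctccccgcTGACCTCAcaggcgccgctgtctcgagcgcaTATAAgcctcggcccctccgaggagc
TGACG is the core of the element that cAMP-responsive factors bind. It began 124 and 49 bases before the start of *Fam150b*, and its reverse complement began 96 bases before the start of *Trh*. TGACCTCA began 57 bases and TATAA 26 bases before the start of *Trh*. Among 32851 promoters of the same length, 17.8% held TGACG on either strand, 1.94% held TGACCTCA and 22.8% held TATAA. These matches are descriptions of letters, and no binding was measured here.

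*Reln* and *Ntng1* were present in both clusters and were higher in cluster 14 on each of the 7 plates. *Reln* stood at 139, 226, 175, 329, 437, 345 and 401 CPM in cluster 14 and at 39.4, 181, 171, 39.2, 292, 215 and 308 CPM in cluster 15. The paired difference was smallest on AL5, and the ranges overlapped. The log2 fold change of *Reln* was 0.91 (SE 0.33, edgeR unadjusted p = 0.0148, adjusted p = 0.998). *Ntng1* stood at 323, 343, 164, 98.9, 154, 92.3 and 147 CPM in cluster 14 and at 274, 249.6, 19.7, 33.6, 46.9, 34.1 and 95.6 CPM in cluster 15. Both Q plates were high in either cluster, and the gap lay mainly on the AL and JM plates, where the log2 fold change was 1.64 against 0.36 on the Q plates. Over all plates it was 1.23 (SE 0.34, edgeR unadjusted p = 0.00299, adjusted p = 0.998), and DESeq2 gave an adjusted p of 0.0408. Of 6998 genes, 66 (0.943%) were higher in cluster 14 on every plate and 75 (1.07%) were higher in cluster 15 on every plate. How many would be so by chance alone was not tested.

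By cells, a *Reln* UMI was found in 86.0% of cluster 14 and 55.0% of cluster 15, against 10.2% of the other PVH cells. *Ntng1* was found in 84.2% and 43.3%, against 15.4% of the other PVH cells. With cells thinned to 59880 UMIs these shares were 82.7% and 52.8% for *Reln* and 80.8% and 41.5% for *Ntng1*. Both genes were found together in 41 cells of cluster 14 (71.9%) and in 15 cells of cluster 15 (25.0%). Over plates *Reln* stood highest in cluster 14 (289 ± 106 CPM), followed by cluster 12 (191 ± 98.9 CPM), cluster 15 (156 ± 118 CPM) and cluster 13 (101 ± 68.5 CPM), whose neighbours in this order do not differ beyond their spread.

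The plate values of *Penk* overlapped widely. It stood at 1277, 1450.0, 239, 1918, 1827, 0 and 537 CPM in cluster 14 and at 123, 56.5, 335, 496, 15.6, 795 and 204 CPM in cluster 15. Cluster 14 was higher on 5 plates and lower on AL5 and JM7, and the log2 fold change was 2.09 (SE 1.66, edgeR unadjusted p = 0.252, adjusted p = 0.998). It was called higher in cluster 14 by edgeR on the Q plates alone (log2 fold change 4.04, adjusted p = 3.91e-12) and without the filter on low counts (adjusted p = 5.57e-17). Without the filter the SE was 0.23, although the side differed between plates. A *Penk* UMI was found in 26 of 57 cells of cluster 14 (45.6%) and in 24 of 60 cells of cluster 15 (40.0%), against 13.4% of the other PVH cells, and with thinned cells in 38.5% and 35.8%. The median cell of either cluster had 0 *Penk* UMIs, whereas 16 cells of cluster 14 and 5 cells of cluster 15 reached 1000 CPM. The 5 highest cells held 67.0% of the *Penk* UMIs of cluster 14 and 58.5% of those of cluster 15, and a single cell of cluster 14 held 93.7% on plate Q5 and 100% on plate Q7, so that the call on the Q plates rests mainly on 2 cells.

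*Trh* was higher in cluster 15 on 6 of 7 plates. It stood at 251, 21.0, 0, 0, 0, 299 and 3.63 CPM in cluster 14 and at 1661, 1114, 5306, 832, 0, 358 and 337 CPM in cluster 15. Both clusters were at 0 on JM6, and the ranges overlapped. In cluster 15 a single cell held 100% of the *Trh* UMIs on JM5 and on JM7. It held 90.4% on JM8, 73.3% on Q5, 67.8% on AL5 and 60.9% on Q7. The value of cluster 14 on JM7 also came from 1 cell. The log2 fold change was -5.12 (SE 1.70, edgeR unadjusted p = 0.0276, adjusted p = 0.998), and DESeq2 gave an adjusted p of 0.0663. Without the filter on low counts edgeR called *Trh* (adjusted p = 7.64e-93), with an SE of 0.26. That setting called 18 genes, of which 6 lay on the same side on every plate, and *Trh* was not among the 6. A *Trh* UMI was found in 9 of 57 cells of cluster 14 (15.8%) and in 25 of 60 cells of cluster 15 (41.7%), with 19.0% in the other PVH cells, and with thinned cells in 11.5% and 39.6%. At 1000 CPM or above there were 3 and 14 cells. Among PVH clusters *Trh* stood highest in cluster 9 (2628 ± 674 CPM), then in cluster 15 (1512 ± 1732 CPM), whose SD over plates exceeded its mean, while cluster 14 ranked at 6 (71.9 ± 126 CPM).

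**Figure D2:**
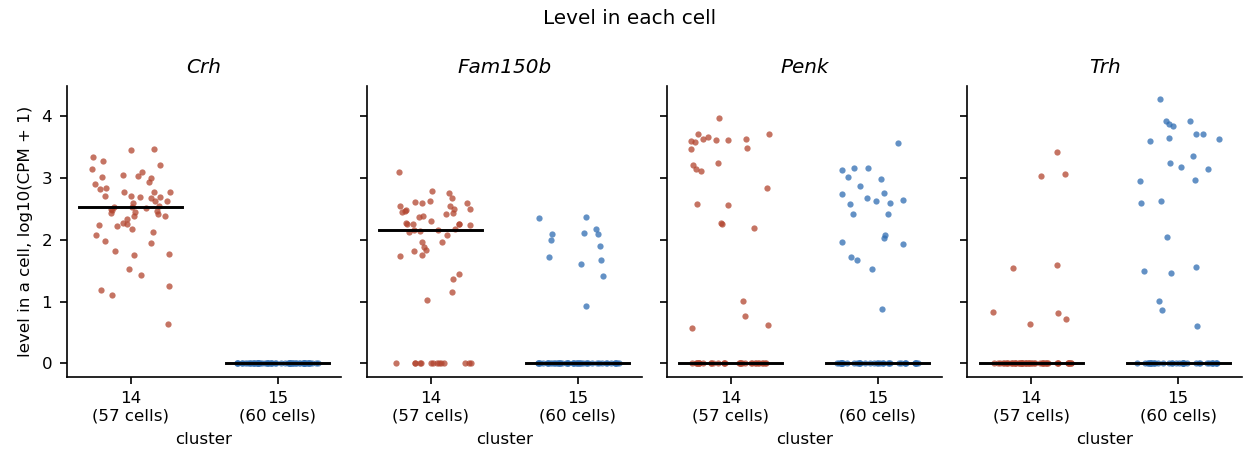
The log10(CPM + 1) of each of the 57 cells of cluster 14 and the 60 cells of cluster 15 for *Crh*, *Fam150b*, *Penk* and *Trh*, with a black bar at the median. Every cell of cluster 14 lies above 0 for *Crh* and every cell of cluster 15 lies at 0, whereas the median of both clusters is 0 for *Penk* and for *Trh*.

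Markers were also counted together within cells. In cluster 14, 43 cells held *Crh* with *Fam150b* and 26 cells held *Crh* with *Penk*. Cells with both *Penk* and *Trh* numbered 4 in cluster 14 and 10 in cluster 15, and cells with *Penk*, *Trh* and *Fam150b* numbered 3 and 0. Of the 25 cells of cluster 15 with *Trh*, 15 also held *Cartpt*, the precursor of the appetite-suppressing CART peptide. A UMI of none of *Penk*, *Trh* and *Fam150b* was found in 17 cells of cluster 15 (28.3%) and in 5 cells of cluster 14 (8.77%).

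None of the genes of transmitter identity tested over all paired plates passed the threshold in edgeR. *Slc17a6*, the vesicular glutamate transporter VGLUT2, had a log2 fold change of -0.01 (SE 0.21), and *Slc32a1*, the vesicular GABA transporter, was at 0 in every sum of both clusters. *Gad2*, a GABA-synthesizing enzyme, stood at 7.07, 0, 0, 62.6, 2.30, 279 and 47.9 CPM in cluster 14 and at 176, 226, 3.28, 56.0, 0, 46.0 and 149.9 CPM in cluster 15, with no steady side over plates (log2 fold change -1.74, SE 1.28). On the Q plates alone *Gad2* was called higher in cluster 15 (log2 fold change -6.01, edgeR adjusted p = 0.00774), and in the AL and JM series the difference had the other sign (0.20). *Pdyn*, the dynorphin precursor, stood at 66.4, 268, 103, 198, 352, 97.9 and 297 CPM in cluster 14 and at 24.0, 0, 151, 213, 203, 203 and 48.6 CPM in cluster 15 (log2 fold change 1.09, SE 0.80), and 70.2% against 38.3% of the cells had a UMI. *Sim1*, a transcription factor that specifies PVH neurons, had a log2 fold change of 0.34 (SE 0.80). *Npy1r* and *Sst*, a neuropeptide Y receptor and somatostatin, stayed below the filter on low counts.

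*Oxt* and *Avp*, the oxytocin and vasopressin precursors, had UMIs in nearly all cells of both clusters: *Oxt* in 94.7% and 95%, with medians of 10 and 12 UMIs, and *Avp* in 93.0% and 90.0%. The presence of a UMI of these precursors therefore did not tell cells apart, and the part of free RNA in it was not tested. The log2 fold changes were 0.78 (SE 1.45) for *Oxt* and 1.16 (SE 0.97) for *Avp*. Without Q7, where 1 cell of cluster 14 held 99.0% of the *Oxt* UMIs, the value for *Oxt* was 0.043, and it was 0.24 without JM8, 0.38 without JM6 and 1.54 without JM5. All 6 tested of 9 magnocellular genes had a log2 fold change above 0, with a median of 1.06, and edgeR called 0 of them. Without the filter on low counts edgeR called *Oxt* (adjusted p = 0.00796) and *Calb1* (adjusted p = 6.11e-09). Limma called *Calb1* (adjusted p = 0.0380), though its fold changes leaned to cluster 14 over all genes (median 0.25). For *Oxt* the SE was 0.17 without the filter, although cluster 14 was higher on 4 plates and lower on 3. The lowest p among them was that of *Calb1*, the calcium buffer calbindin, at 659.5 ± 478 CPM in cluster 14 and 243 ± 217 CPM in cluster 15 (log2 fold change 1.59, SE 0.66).

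Of the genes higher in cluster 14 on every plate, those of lowest edgeR p beyond *Crh* and *Fam150b* were *Nell1*, *Cacna1c* and *Phc3*. *Nell1*, which encodes a secreted glycoprotein, stood at 109.9, 109.9, 79.6, 244, 156, 160.1 and 243 CPM in cluster 14 and at 50.6, 65.1, 26.3, 72.8, 5.21, 90.3 and 16.2 CPM in cluster 15 (log2 fold change 1.94, SE 0.51, edgeR unadjusted p = 0.00199), and DESeq2 gave an adjusted p of 0.00572. The ranges touched only through AL5 of cluster 14 and JM7 of cluster 15. *Cacna1c*, the pore of the L-type calcium channel Cav1.2, stood at 32.6, 190.2, 7.02, 78.7, 68.9, 50.9 and 51.5 CPM in cluster 14 and at 24.0, 15.1, 0, 14, 2.61, 5.11 and 10.5 CPM in cluster 15 (log2 fold change 2.86, SE 0.76). In cluster 14 a single cell held 100% of its UMIs on AL5 (3 UMIs) and on JM6, and 99.4% on Q7. *Phc3*, a Polycomb group protein, stood at 26.3, 168, 39.8, 38.4, 133, 97.9 and 38.5 CPM in cluster 14 and at 0, 26.4, 0, 2.80, 44.3, 1.70 and 21.9 CPM in cluster 15 (log2 fold change 3.45, SE 0.92). The adjusted p of *Nell1*, *Cacna1c* and *Phc3* in edgeR was 0.998. DESeq2 called all 3, and limma called *Nell1* alone of them.

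Ranges over plates did not overlap for 4 genes higher in cluster 14 (0.0572% of the genes tested), namely *Crh*, *Fam150b*, *Dpf1* and *Appl1*. *Dpf1*, a neuronal subunit of the BAF chromatin remodelling complex, ran from 33.9 to 103 CPM in cluster 14 and from 0 to 29.5 CPM in cluster 15 (log2 fold change 3.73, SE 1.05). *Appl1*, an endosomal adaptor, ran from 118 to 184 CPM and from 46.9 to 94.1 CPM (log2 fold change 0.98, SE 0.32). In the other direction there were 2 such genes (0.0286%), *Ermp1* (log2 fold change -2.15), an endopeptidase of the endoplasmic reticulum, and *Hmgb3* (log2 fold change -1.92), a high-mobility-group chromatin protein. *Dpf1*, *Appl1*, *Ermp1* and *Hmgb3* were singled out after their values were seen. *Crh*, *Fam150b* and *Dpf1* passed the filter on low counts through their sums of cluster 14. *Fank1*, whose ranges lay apart with cluster 15 higher, stayed below it, so the counts in either direction depend on the filter. How many of the genes tested would be set apart in this way by chance alone was not tested.

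**Figure D3:**
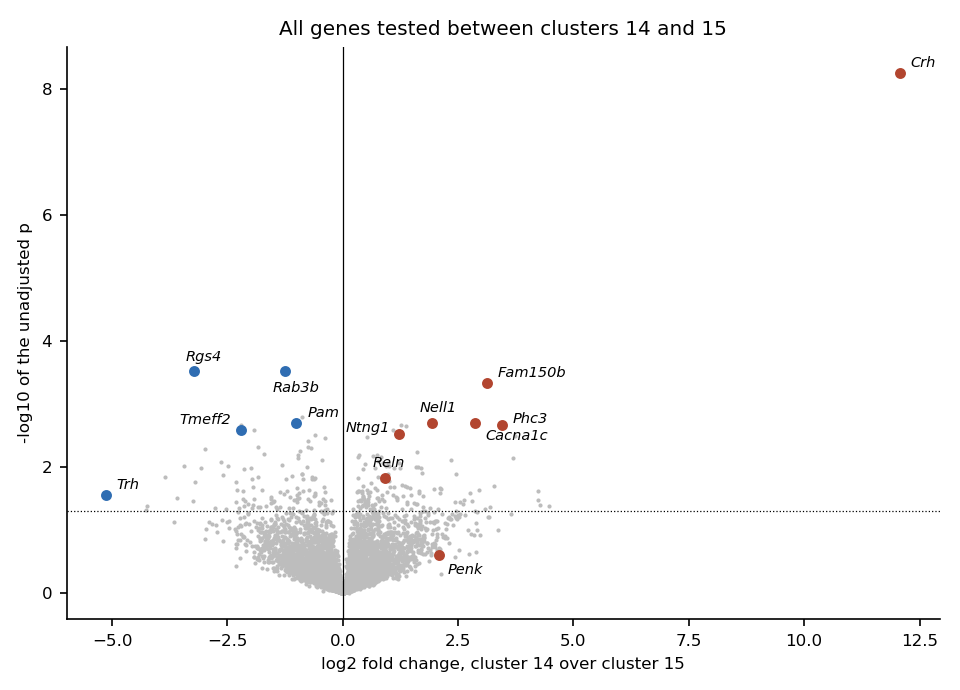
Log2 fold change of cluster 14 over cluster 15 (x axis) against -log10 of the unadjusted edgeR p (y axis) for the 6998 genes tested, with the named genes coloured and a dotted line at p = 0.05. *Crh* stands alone at its fitted value, which is no bound, and the remaining genes spread to both sides.

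Of the genes higher in cluster 15 on every plate, the 5 of lowest edgeR p were *Rab3b*, *Rgs4*, *Pam*, *Tmeff2* and *Ywhaq*. *Rab3b*, a small GTPase of secretory vesicles, stood at 274, 143, 72.5, 58.5, 119.5, 139 and 95.8 CPM in cluster 14 and at 573, 261, 405, 199, 216, 186 and 260.2 CPM in cluster 15 (log2 fold change -1.24, SE 0.26, edgeR unadjusted p = 0.000301, adjusted p = 0.708). All plates of cluster 14 except Q5 lay below all plates of cluster 15. *Rgs4*, which speeds the turning off of G proteins, stood at 22.4, 2.47, 4.68, 16.1, 0, 13.2 and 42.1 CPM in cluster 14 and at 115, 197, 105, 42.0, 15.6, 118 and 208 CPM in cluster 15 (log2 fold change -3.23, SE 0.68, edgeR unadjusted p = 0.000303, adjusted p = 0.708). *Pam*, the enzyme that amidates the ends of peptides, stood at 75, 154, 32.8, 268, 103, 171 and 97.3 CPM in cluster 14 and at 165, 272, 197, 473, 159, 278 and 171 CPM in cluster 15 (log2 fold change -1.02, SE 0.27). It was called higher in cluster 15 when all PVH clusters were fitted together. *Tmeff2*, a transmembrane protein with follistatin-like domains, had a log2 fold change of -2.19 (SE 0.60) and lay between 4.04 and 75 CPM in cluster 14 and between 34.5 and 111 CPM in cluster 15. *Ywhaq*, the adaptor protein 14-3-3 theta, had the smallest of these differences, -0.60 (SE 0.17). Over the 7 paired plates edgeR called none of these 5 genes (adjusted p = 0.998 for *Pam*, *Tmeff2* and *Ywhaq*). DESeq2 called all 5, and limma called none of them (adjusted p from 0.147 for *Rgs4* to 0.766 for *Pam*). By mean CPM among the 12 PVH clusters, clusters 15 and 14 ranked at 10 and 12 for *Pam* and at 9 and 12 for *Rgs4*. They ranked at 5 and 10 for *Rab3b*, 4 and 10 for *Tmeff2* and 3 and 8 for *Ywhaq*.

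Among groups of functionally related genes, *Crh* was the 1 member called by edgeR over the 7 paired plates, while other tools called further members. The median log2 fold change over all 6998 genes was -0.0039, with 3486 above and 3512 below 0. Of 51 neuropeptide genes 13 were tested, 7 above and 6 below 0 (median 0.16), among them *Crh*. *Chgb*, a granin of dense-core vesicles, was lower in cluster 14 on all 7 plates at 375 ± 104 against 492.7 ± 135 CPM (log2 fold change -0.39). Of 16 peptide-processing genes 12 were tested, 6 to either side (median -0.06). Besides *Pam*, *Pcsk2*, the prohormone convertase PC2, was lower in cluster 14 on all 7 plates at 121 ± 33.9 against 254 ± 139 CPM (log2 fold change -0.92). None of the 12 passed the threshold in edgeR over the 7 paired plates. *Pam* passed in DESeq2 (adjusted p = 0.0125) and in edgeR with all PVH clusters fitted together (adjusted p = 0.0187).

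The pathways of the marker genes gave the following. Of 15 reelin pathway genes 9 were tested, 8 above and 1 below 0 (median 0.39), and *Reln* itself had the lowest p. The ALK and LTK list had 3 of 7 genes tested (median -0.02), of which *Fam150b* alone lay above 0. Of 18 TRH and thyroid hormone genes 8 were tested, 4 to either side (median -0.17). Of 10 opioid genes 3 were tested (median 1.09), and of 13 CRH and glucocorticoid genes 4 were tested (median 0.14) with *Crh* called. Of 47 netrin-G and synaptic organiser genes 32 were tested, 20 above and 12 below 0 (median 0.06), and *Ntng1* had the lowest p. None but *Crh* was called by edgeR in these lists, while DESeq2 called *Fam150b* and *Ntng1* and edgeR without the filter on low counts called *Trh*, *Penk* and *Fam150b*.

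Of 59 neuropeptide and hormone receptors 11 were tested, 7 above and 4 below 0 (median 0.42). *Npy2r*, a presynaptic neuropeptide Y receptor, stood at 43.2, 0, 81.9, 50.5, 41.4, 139 and 68.2 CPM in cluster 14 and at 0, 37.1, 0, 0, 39.1, 11.9 and 0 CPM in cluster 15, higher in cluster 14 on 6 plates (log2 fold change 4.23, SE 1.79). Of 28 tested glutamate and GABA receptor genes 14 lay to either side (median 0.02), led by *Grm5*, a metabotropic glutamate receptor (1.61). Potassium channels had 10 above and 12 below 0 (median -0.11), led by the sodium-activated channel gene *Kcnt1* (1.18). Sodium, calcium, HCN and TRP channels had 9 above and 15 below 0 (median -0.16), and *Cacna1c* had the lowest p. Of 8 tested monoamine, acetylcholine and cannabinoid receptor genes 4 lay to either side (median 0.19), and the adenosine receptor gene *Adora1* came first (2.02).

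Of the remaining lists, 20 transcription factors of the PVH and hypothalamus were tested of 74, 7 above and 13 below 0 (median -0.28), and *Ebf3* had the lowest p (log2 fold change 3.27, SE 1.25, DESeq2 adjusted p = 0.0324). Transmitter genes had 3 to either side (median 0.51). Cadherins and protocadherins had 11 above and 6 below 0 (median 0.18, *Pcdh10* 1.00), and axon guidance genes 16 and 15 (median 0.02, *Cntn5* 1.6). Immediate early genes, which report recent activity, had 3 above and 4 below 0 (median -0.16, *Egr1* 2.16). All 10 pan-neuronal markers were tested, 7 above and 3 below 0 (median 0.06, *Syt1* -0.66). In these lists 0 genes were called by edgeR over the 7 paired plates with the filter on low counts. Of the transmitter genes, edgeR called *Ddc* with all PVH clusters fitted together (adjusted p = 0.0131) and without the filter (adjusted p = 0.0104). DESeq2 called *Ddc* as well (adjusted p = 5.18e-05), and edgeR called *Gad2* on the Q plates alone.

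**Figure D4:**
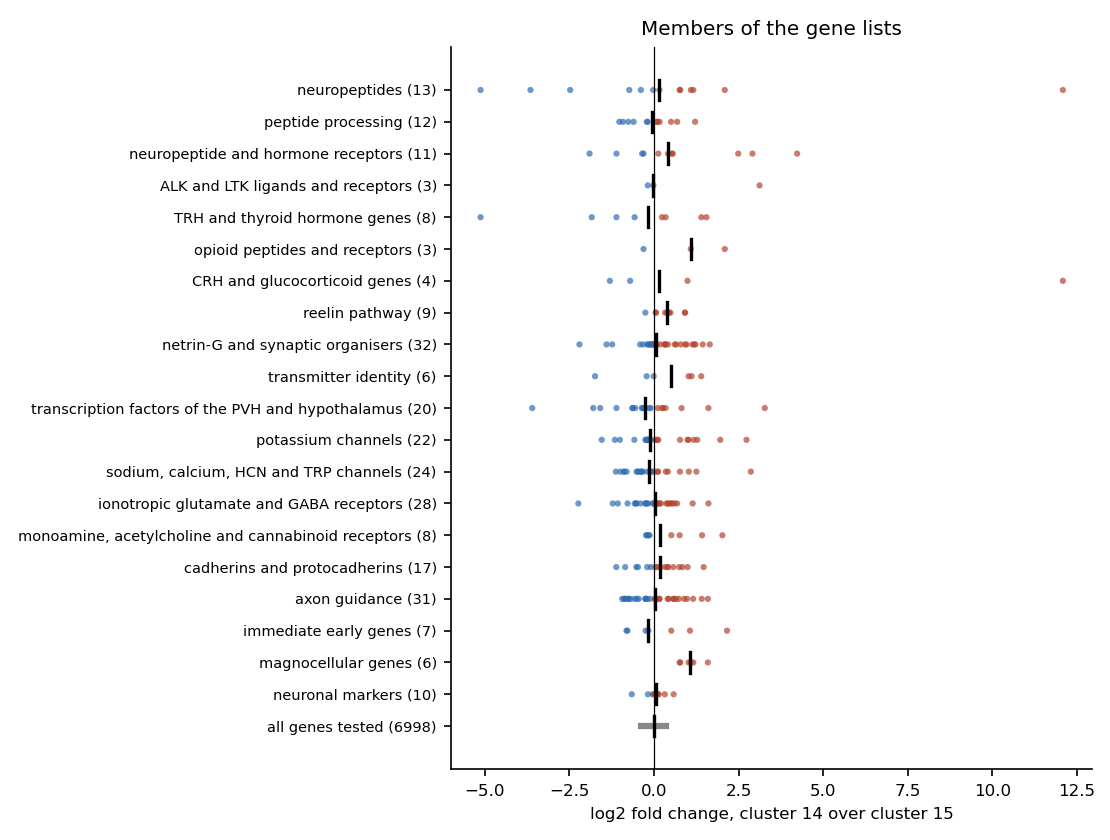
Log2 fold change of cluster 14 over cluster 15 for each tested member of the gene lists, with the number tested in brackets, a black bar at the list's median and a grey band over the middle 50% of all 6998 genes. The list medians lie between -0.28 for transcription factors and 1.09 for opioid genes, and *Crh* is the only member called by edgeR, while DESeq2 called others too, among them *Fam150b*, *Ntng1*, *Cacna1c* and *Pam*.

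Genes that followed *Penk* or *Trh* over the 14 sums were sought among 7689 genes by the correlation of log2(CPM + 1), as a description, since the points share plates and depth. Nearest to *Penk* were *Mrpl47* (r = 0.878), *Dtx1* (0.800), *Coq5* (0.793), *Hace1* (0.790) and *Gria4* (0.765), an AMPA receptor subunit. Nearest to *Trh* were *Rassf1* (0.833), *Cops3* (0.820), *Spint2* (0.816), *Cartpt* (0.814) and *Fbxo30* (0.812). *Cartpt* stood at 3328, 201, 985, 0, 0, 80.0 and 51.1 CPM in cluster 15 and at 882, 2.47, 0, 0, 0, 79.1 and 0 CPM in cluster 14. It was thus at 0 in both clusters on JM5 and JM6 and highest on Q5, and 38.3% of the cells of cluster 15 against 14% of cluster 14 had a UMI.

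The cells of each plate were assigned to whichever of both clusters had the more similar mean profile on the remaining plates. By this measure 90 of 117 cells (76.9%) fell in their own cluster, 52 of 57 for cluster 14 (91.2%) and 38 of 60 for cluster 15 (63.3%). Leaving out *Crh*, an alternative chosen after seeing the data, gave the same 76.9% with 53 and 37 cells, and leaving out 6 marker genes gave 75.2%. The difference between both correlations ran from -0.0932 to 0.141 in cluster 14 (median 0.05) and from -0.112 to 0.0896 in cluster 15 (median -0.0380), and 8 and 9 cells lay within 0.02 of 0.

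The cells of cluster 15 that were nearer to cluster 14 numbered 22, from 7 plates. *Reln* was found in 19 of them (86.4%) against 14 of the 38 other cells of cluster 15 (36.8%), and *Fam150b* in 10 (45.5%) against 3 (7.89%). *Pdyn* was found in 15 (68.2%) against 8 (21.1%). *Trh* was found in 3 (13.6%) against 22 (57.9%), *Cartpt* in 1 against 22 and *Gad2* in 1 against 17. *Crh* was found in 0 cells of either set, and *Penk* in 10 and 14. The median depth was 78745.5 UMIs in the 22 cells and 94877 UMIs in the 38 cells. These values describe how the cells were sorted, since the same genes entered the profiles. In cluster 15, 20 of 38 cells on AL and JM plates (52.6%) and 2 of 22 on Q plates (9.09%) lay nearer cluster 14. In cluster 14, 3 of 15 cells on Q plates (20%) and 2 of 42 on AL and JM plates (4.76%) lay nearer cluster 15. Cells of the Q plates thus lay nearer cluster 15 more often in both clusters, and the part of the plate series in this was not tested. The 5 cells of cluster 14 that were nearer to cluster 15 came from 3 plates and had a median of 264741 UMIs, and 3 of them held *Trh* and 4 *Cartpt*.

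**Figure D5:**
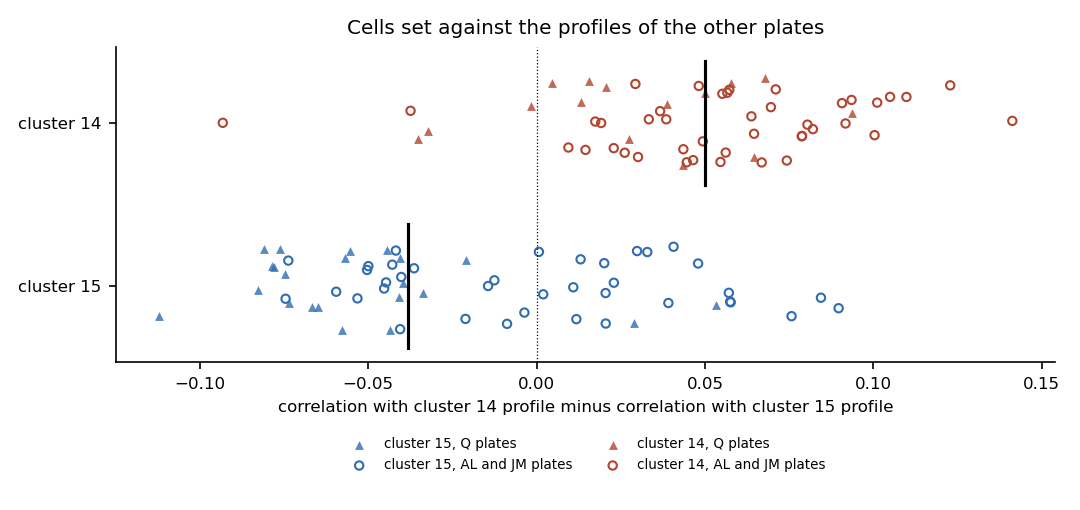
For each cell, its correlation with the mean profile of cluster 14 minus its correlation with that of cluster 15, both from the other plates, with triangles for Q plates, open circles for AL and JM plates and a black bar at the median. Cluster 14 lies mostly above 0 (median 0.05), whereas cluster 15 reaches from -0.112 to 0.0896 and its cells above 0 are mainly from AL and JM plates.

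Plate medians of depth were higher in cluster 14 on 6 of 7 plates for UMIs (log2 difference 0.29 ± 0.36, exact sign-flip permutation test, p = 0.0938, adjusted p = 0.141) and for genes (427 ± 527 genes, exact p = 0.0938, adjusted p = 0.141). UMIs per spike-in UMI differed by 0.10 ± 0.33 on the log2 scale (exact p = 0.438, adjusted p = 0.438), and 7 plates cannot give a p below 0.0156. JM6 (replicate 8) was the 1 plate where cluster 14 was lower, with medians of 64573.5 against 76368 UMIs and 4652 against 5118 genes. Without it the adjusted exact p of UMIs and of genes was 0.0469. All remaining plates then lay on the same side, which fixes the unadjusted exact p at its lowest possible value. Each cell was also thinned to 59880 UMIs, which left out 12 cells, and *Crh* was again the 1 gene called.

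The share of cluster 14 among the cells of both clusters was 38.6 ± 17.0% on the 4 Q plates and 55.1 ± 17.5% on the 6 AL and JM plates (exact permutation test, p = 0.195). Of all PVH cells, cluster 14 made up 4.77 ± 4.29% and 12.3 ± 4.30% (exact p = 0.0381) and cluster 15 made up 7.15% and 11.3% (exact p = 0.338). In the test of whether the difference between the clusters itself differed between plate series, edgeR called 0 of 6998 genes. At an unadjusted p under 0.05 edgeR gave 206 genes in 1 direction and 206 in the other. DESeq2 called 99 and 89 genes at an adjusted p under 0.05, 188 in all. On the Q plates alone, edgeR called *Crh*, *Penk* and *Pcp4l1* higher in cluster 14 and *Cbln2* and *Gad2* higher in cluster 15, and within the AL and JM series *Crh* was the only call.

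Within plates the profiles of clusters 14 and 15 correlated at 0.761 ± 0.042 over 7 plates and 16483 genes, which ranked 10 among 50 pairs of PVH clusters. Cluster 14 stood at 0.791 to cluster 1 (rank 4) and at 0.769 to cluster 12 (rank 7), and cluster 15 stood at 0.760 to cluster 1. On the 2000 most variable genes the order against cluster 1 turned, with 0.294 between clusters 14 and 15 (rank 6), 0.303 between clusters 12 and 14 (rank 5) and 0.192 between clusters 1 and 14 (rank 16). These correlations are across genes, which are not independent replicates.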

How the data were processed

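Hand-picked cells on 10 plates were measured. The authors deposited unnormalized UMI counts per gene (48397) and per ERCC spike-in (92) for 960 wells, with the cluster number of each kept cell. Their processing notes name Trimmomatic 0.36, STAR 2.5.3a and GRCm38.p5, and the counting tool is not given in the sources used here. Labels and methods name different sequencers and library kits.

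Counts of cells were summed per plate and cluster (at least 3 cells). Plates paired the clusters by design, since both came from the same plate, and were a block in edgeR 4.0.16 (TMM, filterByExpr, robust quasi-likelihood F test, R 4.3.3) with Benjamini-Hochberg adjustment over 6998 genes and a threshold of 0.05. The methods name DESeq2 across clusters, and DESeq2 1.42.0 and limma 3.58.1 were alternatives, beside RLE normalization, no filter, no block, at least 5 cells, all PVH clusters together (73 sums), thinned cells, single plate series and left-out plates. The count tests and the assignment of cells were tested on simulated data. Assignments used the 2000 most variable genes on log2(CPM + 1). Levels over PVH clusters are means and SDs over plates. Descriptions and exact permutation tests (two-sided) used Python 3.11.15, numpy 2.4.6, pandas 2.3.3, scipy 1.17.1 and matplotlib 3.10.9.

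The clusters, lists and rules were chosen with earlier results of these data known. Named were 15 genes from the study or of PVH identity, in each direction the 5 genes of lowest p on the same side on every plate (as fewer than 5 were called), the called or else lowest-p member of each list, and the 5 genes nearest to *Penk* and to *Trh*. Others were named after their values were seen. In the gene lists, 1 result is not reported here.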

Additional observations from a re-analysis of the deposited data

Results flagged for a closer look

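The rule that flags 1 plate far from the other 6 marks about 1 in 20 groups where values are normally distributed. The CPM values here are unlogged and often rest on few cells, so the count cannot be read against that rate. In 13 of 49 groups of 7 plates, the value of 1 plate lay far from the other 6. In cluster 15 these were *Trh* on AL5 (5306 CPM, 67.8% of its UMIs from 1 cell), *Fam150b* on JM7 (86.9 CPM), *Npy1r* on Q5 (29.1 CPM), *Sst* on Q5 (1841 CPM), *Oxt* on JM5 (2523 CPM), *Avp* on JM7 (1694 CPM) and *Pam* on JM5 (473 CPM). In cluster 14 they were *Npy1r* on AL5 (9.36 CPM), *Gad2* on JM7 (279 CPM), *Oxt* on Q7 (11934 CPM, 99.0% of its UMIs from 1 cell), *Avp* on Q5 (688 CPM), *Cacna1c* on Q7 (190.2 CPM) and *Rab3b* on Q5 (274 CPM). A single cell also held 99.4% of the UMIs of *Oxt* on JM5, 97.4% of *Avp* on JM7 and 97.1% of *Npy1r* on Q5. It held 100% of *Npy1r* on AL5 and 99.4% of *Cacna1c* on Q7, and at most 72.8% in the flagged groups without a share here.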

How the results depend on the processing

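*Crh* was called higher in cluster 14 with either normalization, without the block, without each plate in turn, with at least 5 cells and after thinning. The number of other calls depended on the test. Genes called higher in cluster 14 and in cluster 15 numbered 22 and 28 with DESeq2, of which 27 of 50 lay on the same side on every plate, 8 and 10 without a filter on low counts, 12 and 0 with limma, and 3 and 2 on the Q plates alone. Of the 18 genes called without a filter, 6 lay on the same side on every plate. With all PVH clusters fitted together 3 were higher in cluster 15 (*Plk2*, *Ddc* and *Pam*). Without the replicate block the pairing by plate was lost and the counts were 1 and 0. The difference between plate series was called for 14 genes without a filter and for 188 with DESeq2.

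Some differences changed sign: *Gad2* was 0.20 on the AL and JM plates alone, *Avp* -0.32 without the block, and *Sim1* -0.23 with at least 5 cells and -0.17 without replicate 5 (AL5). *Slc17a6* was 0.053 with at least 5 cells, 0.17 with all PVH clusters, 0.067 after thinning, 1.23 with limma, 0.057 on the Q plates alone, and 0.055, 0.064, 0.039 and 0.014 without replicates 3, 8, 9 and 10 (leaving out each plate in turn gave -0.13 to 0.06, and -0.17 to 0.86 for *Sim1*). *Fam150b* kept its sign throughout (2.24 to 4.30), as did *Penk* (0.66 to 4.04), *Trh* (-6.22 to -2.38), *Reln* (0.62 to 2.23) and *Ntng1* (0.36 to 2.68). In these ranges 4.30, 0.66, -2.38, 2.23 and 2.68 came from limma. There the median log2 fold change over all genes was 0.25, against -0.0039 in the edgeR fit. At an unadjusted p under 0.05 limma gave 552 genes higher in cluster 14 and 68 higher in cluster 15. Leaving out each plate in turn gave differences of 0.21 to 0.38 for UMIs per cell, 321 to 576 for genes per cell and 0.04 to 0.16 for UMIs per spike-in UMI. The correlation between the clusters was 0.824 on log2(CPM + 10) and 0.294 on the 2000 most variable genes. The cause of these changes was not tested. Few cells per plate limit what these sums can show for low genes.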

Other observations

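Several genes that were nearly absent from cluster 14 stayed below the filter on low counts in edgeR and were named after their values were seen. *Ddc*, the decarboxylase that makes dopamine and serotonin, was found in 1 of 57 cells of cluster 14 (1.75%) and in 18 of 60 cells of cluster 15 (30%), and stood at 43.7, 6.99, 78.8, 0, 67.8, 27.2 and 68.9 CPM in cluster 15. *Plk2*, an activity-regulated kinase, was found in 3 cells (5.26%) and 21 cells (35%). *Fank1* reached at most 2.30 CPM in cluster 14 and ran from 8.4 to 133 CPM in cluster 15. *Kcnf1*, a modulatory potassium channel subunit, was found in 1 and 11 cells.

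The calcium buffers *Calb1* and *Calb2* had log2 fold changes of opposite sign. *Calb2*, calretinin, stood at 15.3, 128, 16.4, 228, 64.3, 39.6 and 47.9 CPM in cluster 14 and at 11.1, 188, 499, 319, 623, 640.3 and 366 CPM in cluster 15, lower in cluster 14 on 6 of 7 plates (log2 fold change -2.21, SE 0.59, edgeR unadjusted p = 0.00218, adjusted p = 0.998). *Sparcl1*, the secreted matricellular protein hevin, was found in 93.0% of the cells of cluster 14 and 60% of those of cluster 15, and *Cbln4*, a cerebellin that organises synapses, in 87.7% and 48.3%.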
